A study of Rattus norvegicus with 6 samples.

Results

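Apolipoproteins are the protein part of the particles that carry lipid in blood. The 10 genes described here encode apolipoproteins that hepatocytes make and secrete: Apoa1, Apoa2, Apoa4, Apoa5, Apob, Apoc1, Apoc2, Apoc3, Apoh and Apom. They were chosen by symbol, and all 10 had a row among the 16209 rows of the deposited table. The protein of Apob is the scaffold of very low density lipoprotein, which the liver fills with triglyceride and releases. Those of Apoa1 and Apoa2 build high-density lipoprotein, and smaller exchangeable apolipoproteins such as the products of Apoc2 and Apoc3 set how fast lipoprotein lipase removes triglyceride from circulating particles. Most of these genes depend on liver-enriched transcription factors, among them HNF4-alpha, and a loss of plasma lipoproteins is a known feature of advanced liver disease.

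RNA was sequenced from 6 samples of fibrotic rat liver: 3 were labelled as treated with ginkgetin, a biflavone from plants, at 10 mg/kg/day, and 3 as treated with vehicle. All 6 samples were of fibrotic liver, so no healthy liver is part of the comparison, which asks how ginkgetin changes gene expression in fibrotic liver. The labels give neither the strain, sex and age of the rats nor the agent and length of the injury, and they do not say that each sample came from a separate animal. The vehicle columns of the table are lettered TAA, a name the labels do not use; they were taken as the vehicle samples, and every direction rests on that. The values are normalized read counts per gene. A log2 fold change is the mean of log2(value + 1) with ginkgetin minus that with vehicle, and a p-value speaks only of the spread among these samples, which may be technical.

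Reads assigned to genes ranged from 13735802 to 14933853 in the ginkgetin libraries and from 13372367 to 14150827 in the vehicle libraries. The normalized reads did not have equal totals. They summed to 16510702, 16250451 and 16991873 in ginkgetin replicates 1 to 3, and to 15863575, 11768875 and 8265117 in vehicle replicates 1 to 3. One vehicle library, replicate 3, differed from the rest: albumin (Alb) took 2.89% of its normalized reads, against 6.56% to 12.1% with ginkgetin and 7.77% and 9.44% in the other vehicle libraries. The comparison is therefore given with and without this library. Of 22 hepatocyte markers tested, 21 had higher means with ginkgetin, and their summed level was 353808 to 495245 normalized reads with ginkgetin and 44774 to 420867 with vehicle. Of 11 cholangiocyte markers, 0 had a higher mean, and the list summed to 544 to 1259 normalized reads with ginkgetin and 2832 to 22615 with vehicle. Stellate cell and myofibroblast markers (13 of 15 lower) summed to 3962 to 7460 against 12742 to 134339, and macrophage markers (9 of 15 lower) to 8929 to 17124 against 9873 to 66052, in both cases with the highest sum in vehicle replicate 3. Endothelial markers (6 of 10 higher) summed to 2963 to 4306 against 3237 to 4669. Without vehicle replicate 3, 18 of 22 hepatocyte, 0 of 11 cholangiocyte, 5 of 15 stellate cell and 6 of 10 endothelial markers had higher means. Macrophage markers then changed side, with 8 of 15 higher and a median log2 fold change of 0.04, against -0.46 with all 6 libraries. The part of these differences in the results below was not tested. In bulk tissue, fewer hepatocytes and less RNA per hepatocyte cannot be told apart.

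All 10 apolipoprotein transcripts had higher means in the ginkgetin samples than in the vehicle samples, and none passed the threshold of 0.05 after adjustment over all genes in limma. Apoa4 stood furthest apart, at a log2 fold change of 4.15, and Apoa1 least, at 0.32; the median of the 10 was 1.56, beside -0.02 over the 14639 genes tested. Of all genes tested, 48.6% had a higher mean with ginkgetin. At an unadjusted p under 0.05 there were 5 of the 10 (Apoa4, Apoa2, Apom, Apoa5 and Apoc2), where 7.00% of all genes were higher and 13.2% lower at that level, and 0.0137% passed after adjustment in either direction. The ginkgetin and vehicle libraries did not overlap in 5 members (Apoa2, Apoa4, Apoa5, Apoh and Apom), where 11.4% of all genes were higher without overlap. Without vehicle replicate 3 all 10 means were still higher (49.5% of all genes were) and all 10 differences were smaller, with a median of 0.88 beside -0.01 over all 14332 genes tested. No member passed after adjustment, where 0.781% of all genes did, and at an unadjusted p under 0.05 there were 4 members, against a background of 5.75%, and the same 5 members did not overlap, against 14.8%. Vehicle replicate 3 was the lowest library for all 10 members. Leaving it out therefore had to shrink each difference, and it could not change which members overlapped. The members together took 2.05%, 2.07% and 2.29% of the normalized reads in ginkgetin replicates 1 to 3, and 1.75%, 1.49% and 0.641% in vehicle replicates 1 to 3.

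**Figure D1:**
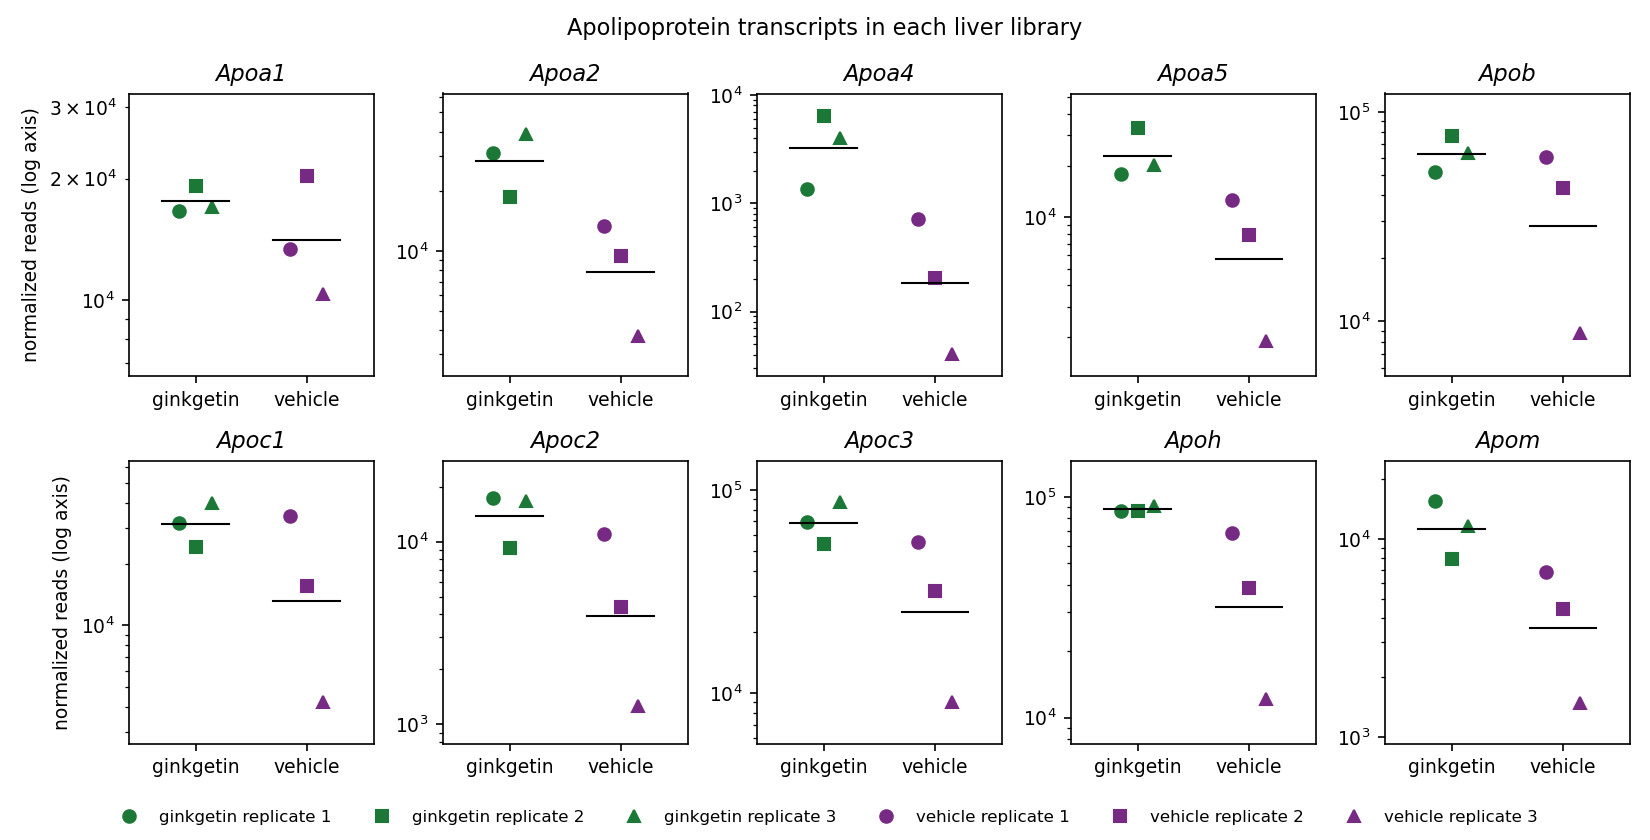
Normalized reads of the 10 apolipoprotein transcripts in each liver library on log axes that differ between panels, with ginkgetin left and vehicle right; symbols mark the replicate and black bars the group mean on the log2 scale. Vehicle replicate 3 was the lowest of the 6 libraries for all 10 transcripts, and the groups did not overlap for Apoa2, Apoa4, Apoa5, Apoh and Apom.

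Among the structural proteins of high-density lipoprotein, Apoa1 and Apoa2 had estimates of different size, and the difference between them was not tested. Apoa1, whose product is the main protein of that particle and activates the enzyme that esterifies its cholesterol, had 16576, 19223 and 17039 normalized reads in ginkgetin replicates 1 to 3, and 13381, 20308 and 10365 in vehicle replicates 1 to 3. The highest of the 6 values belonged to vehicle replicate 2, so the groups overlapped. The log2 fold change was 0.32 (SE 0.507, 95% interval -0.85 to 1.48, limma adjusted p = 0.746) and 0.09 without vehicle replicate 3, and it turned negative under equal library totals (-0.21), quantile scaling (-0.46) and centring on other secreted hepatocyte proteins (-0.76). Apoa1 was the member with the smallest difference in each of the 2 comparisons. It was also the only member whose vehicle libraries did not fall in the order replicate 1, 2, 3.

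Apoa2, which encodes the second structural protein of high-density lipoprotein, had 31077, 18771 and 38885 normalized reads with ginkgetin and 13370, 9453 and 3731 with vehicle. The lowest ginkgetin library lay above the highest vehicle library. Its log2 fold change was 1.86 (SE 0.636, 95% interval 0.40 to 3.33, limma adjusted p = 0.174), and 1.33 (SE 0.410, adjusted p = 0.157) without vehicle replicate 3. DESeq2 on whole reads recovered from the values called it (adjusted p = 0.0148, and 0.00555 without vehicle replicate 3), and edgeR did not (adjusted p = 0.203 and 0.162). DESeq2 called 1.97% of all genes higher in the 6 libraries and 1.62% without vehicle replicate 3, and edgeR called 0% and 1.37% in either direction.

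Apom encodes the high-density lipoprotein protein that carries sphingosine 1-phosphate. It had 15476, 7945 and 11631 normalized reads with ginkgetin and 6815, 4447 and 1478 with vehicle. The groups did not overlap. Its log2 fold change was 1.67 (SE 0.618, limma adjusted p = 0.194), and 1.03 (SE 0.374, adjusted p = 0.221) without vehicle replicate 3.

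Of the genes that act on triglyceride-rich particles, Apoa4 had the largest difference of the 10. Its protein is secreted on such particles by the intestine and, in rodents, also by the liver. Apoa4 had 1348, 6439 and 4012 normalized reads in ginkgetin replicates 1 to 3 and 719, 205 and 40.5 in vehicle replicates 1 to 3. The means were 3933 ± 2546 with ginkgetin and 322 ± 354 with vehicle (SD, n = 3 each), and the groups did not overlap. The log2 fold change was 4.15 (SE 0.979, 95% interval 1.90 to 6.41, limma adjusted p = 0.101), and 3.08 (SE 0.816, 95% interval 1.06 to 5.11, adjusted p = 0.167) without vehicle replicate 3. The vehicle value of 40.5 rests on 66 reads, the fewest of any member in any library. Leaving out vehicle replicate 1, the vehicle library with most Apoa4, gave 5.14 and a limma adjusted p of 0.0210, where 1.94% of all genes were called higher. No other omission of 1 library gave a call. The limma adjusted p was 0.138, 0.315 and 0.305 without ginkgetin replicates 1, 2 and 3, and 0.274 without vehicle replicate 2. DESeq2 called the gene (adjusted p = 0.00169, and 0.0320 without vehicle replicate 3), and edgeR did not (adjusted p = 0.132 and 0.152).

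Enterocyte markers were looked at because the intestine also makes Apoa4. Of 12 on the list, 7 had a row, Apoa4 among them, and the other 6 are given here. Lct, intestinal lactase, was at 0 in the ginkgetin libraries and at 0, 0.832 and 0 normalized reads in the vehicle libraries. Cdx1, an intestinal transcription factor, was at 1.11, 0 and 0 with ginkgetin and at 0, 0.832 and 2.46 with vehicle. Both were thus at or near 0 in every library. Fabp2, the intestinal fatty acid binding protein, was at 50.9, 18.5 and 32.2 with ginkgetin and at 24.9, 30.8 and 33.8 with vehicle, with a log2 fold change of 0.08. Anpep, an aminopeptidase that is also made outside the intestine, was at 1342, 1983 and 1718 with ginkgetin and at 1787, 1641 and 2398 with vehicle (-0.21). Slc5a1, a sodium-glucose cotransporter, was at 84.0, 13.9 and 21.0 with ginkgetin and at 51.0, 129 and 76.1 with vehicle (-1.41). Vil1, an actin-bundling protein of microvilli, was at 3.32, 6.94 and 0 with ginkgetin and at 17.8, 21.6 and 71.2 with vehicle (-3.27, limma adjusted p = 0.129). Its groups did not overlap, with vehicle higher, while those of the other 5 did overlap. The part of these markers in the Apoa4 values was not tested.

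Apoa5, whose product promotes the lipolysis of triglyceride-rich particles, had 17762, 32925 and 20249 normalized reads with ginkgetin and 12621, 7882 and 1891 with vehicle. Every ginkgetin value exceeded every vehicle value. For Apoa5 the log2 fold change was 1.99 (SE 0.743, 95% interval 0.28 to 3.70, limma adjusted p = 0.195), and 1.19 (SE 0.400, adjusted p = 0.189) without vehicle replicate 3. DESeq2 did not call it in the 6 libraries (adjusted p = 0.0699) and did without vehicle replicate 3 (adjusted p = 0.0226).

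Apoc2, which encodes the cofactor that lipoprotein lipase needs, had 17241, 9277 and 16740 normalized reads with ginkgetin and 11008, 4397 and 1256 with vehicle. Vehicle replicate 1 lay above ginkgetin replicate 2, so the groups overlapped. Apoc2 had a log2 fold change of 1.82 (SE 0.768, limma adjusted p = 0.236), and 1.0 (SE 0.456, adjusted p = 0.334) without vehicle replicate 3. Apoc3, whose product opposes lipolysis and the uptake of remnants, had 69773, 54408 and 86816 with ginkgetin and 55366, 31747 and 9025 with vehicle. Here too vehicle replicate 1 lay just above ginkgetin replicate 2. Its log2 fold change was 1.46 (SE 0.816, limma adjusted p = 0.342), and 0.72 (95% interval -0.27 to 1.71) without vehicle replicate 3. Apoc1, whose product hinders the binding of particles to their receptors, had 31765, 24228 and 39960 with ginkgetin and 34289, 15585 and 4210 with vehicle. Vehicle replicate 1 was the second highest of the 6 libraries. Its log2 fold change of 1.26 (SE 0.806, limma adjusted p = 0.399) shrank to 0.44 (95% interval -0.55 to 1.43) without vehicle replicate 3.

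Apob, the scaffold of very low density lipoprotein, had 51616, 76488 and 63349 normalized reads with ginkgetin and 61132, 43346 and 8747 with vehicle. Vehicle replicate 3 was far below the rest, and vehicle replicate 1 lay above ginkgetin replicate 1. The log2 fold change was 1.14 (SE 0.858, limma adjusted p = 0.467) and 0.29 (95% interval -0.64 to 1.22, adjusted p = 0.785) without vehicle replicate 3, and it was -0.10 when that smaller comparison was centred on other secreted hepatocyte proteins. Apoh encodes a phospholipid-binding plasma glycoprotein that is found in part on lipoproteins. It had 86101, 86825 and 90963 normalized reads with ginkgetin and 68732, 38571 and 12210 with vehicle. Its ginkgetin libraries were closer to each other than those of any other member, with an SD of 0.04 on the log2 scale, against 1.27 in the vehicle group. The log2 fold change was 1.46 (SE 0.814, limma adjusted p = 0.338), and 0.77 (95% interval -0.20 to 1.74) without vehicle replicate 3.

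**Figure D2:**
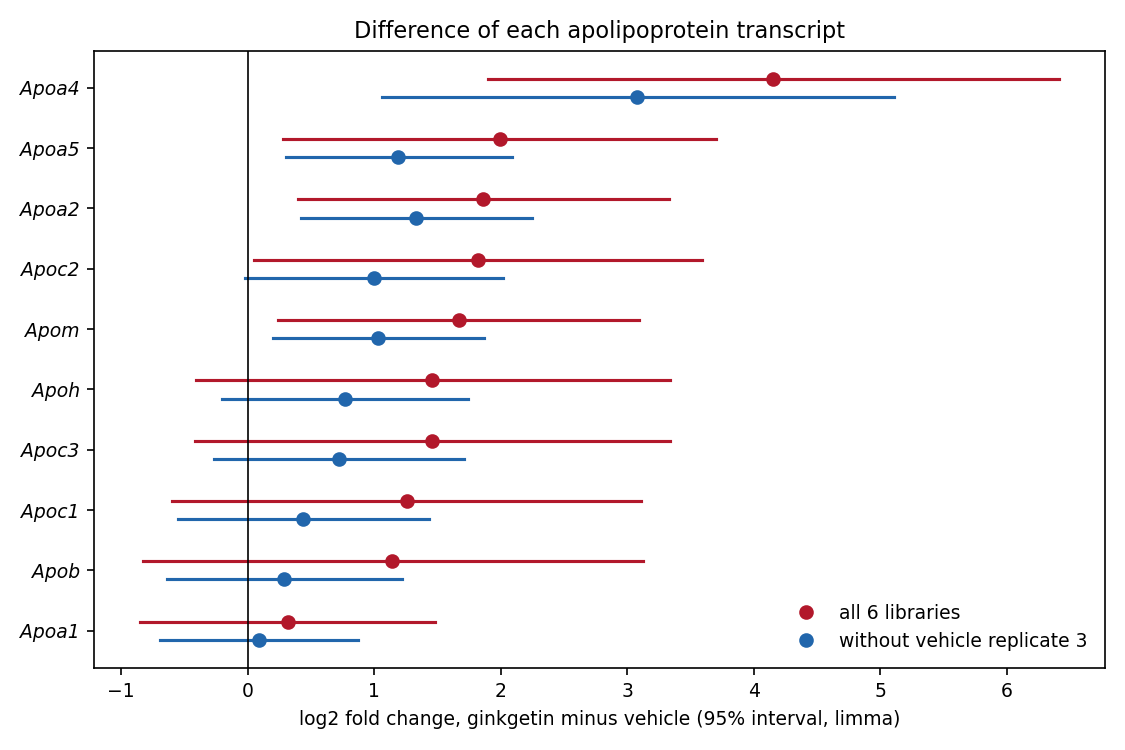
Log2 fold change of each apolipoprotein transcript, ginkgetin minus vehicle, with its 95% limma interval, over all 6 libraries (red) and without vehicle replicate 3 (blue), ordered by the first. All estimates lie above 0, those of Apoa1 at 0.32 and 0.09, and the intervals of Apoa4, Apoa5, Apoa2 and Apom lie above 0 in both.

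Over the 6 libraries the members varied more within the vehicle group than within the ginkgetin group. The SD of log2 values was larger with vehicle in 10 of 10 members, with a median of 0.42 over members with ginkgetin and 1.38 with vehicle. Vehicle replicate 3, the lowest library for all 10, enters every one of these vehicle SDs. Between vehicle replicates 1 and 2 alone the SD was 0.35 for Apoa2 and 0.44 for Apom, below their 0.54 and 0.48 with ginkgetin. For the other members it was still the larger. The same count over all genes was not made. In 9 of 10 members the vehicle libraries fell in the order replicate 1, 2, 3, as Alb did. Within the ginkgetin group the members fell into different orders. Replicate 2 was the highest ginkgetin library for 4 members (Apoa1, Apoa4, Apoa5 and Apob) and the lowest for 5 (Apoa2, Apoc1, Apoc2, Apoc3 and Apom).

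Ratios between members in the same library do not depend on how libraries were scaled. The ratio of Apoa2 to Apoa1 reads was 1.87, 0.976 and 2.28 in ginkgetin replicates 1 to 3, and 0.999, 0.465 and 0.360 in vehicle replicates 1 to 3. The groups overlapped in this ratio, since vehicle replicate 1 lay above ginkgetin replicate 2. The ratio of Apoa4 to Apoa1 was 0.0813, 0.335 and 0.235 with ginkgetin and 0.0537, 0.0101 and 0.00391 with vehicle, without overlap. Against Alb, the ratio of Apoa1 was 0.0153, 0.00977 and 0.00921 with ginkgetin and 0.00893, 0.0222 and 0.0434 with vehicle. Apoa1 thus made up a larger fraction relative to albumin reads in vehicle replicates 2 and 3 than in any ginkgetin library.

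Set against 32 other secreted hepatocyte proteins in the same library, most members differed less. These 32 genes had a median log2 fold change of 1.10 in the 6 libraries and 0.35 without vehicle replicate 3, against 1.56 and 0.88 for the apolipoproteins. With every library centred on the mean of these 32 genes, which moved the median of all genes from -0.02 to -1.10, Apoa4 kept a log2 fold change of 3.08. It rose relative to them (limma adjusted p = 0.00966, where 0.0751% of all genes were called higher) and again without vehicle replicate 3 (2.69, adjusted p = 0.0418, where 0.593% were). It was the only member called in either centred fit. Apoa5 lay at 0.91 (adjusted p = 0.241), Apoa2 at 0.79, Apoc2 at 0.74 and Apom at 0.59, while Apoc1 and Apob lay at 0.18 and 0.07 and Apoa1 at -0.76 (adjusted p = 0.307). After centring the groups did not overlap for 3 members, Apoa4, Apoa5 and Apoh, where 1.17% of all genes were higher without overlap.

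**Figure D3:**
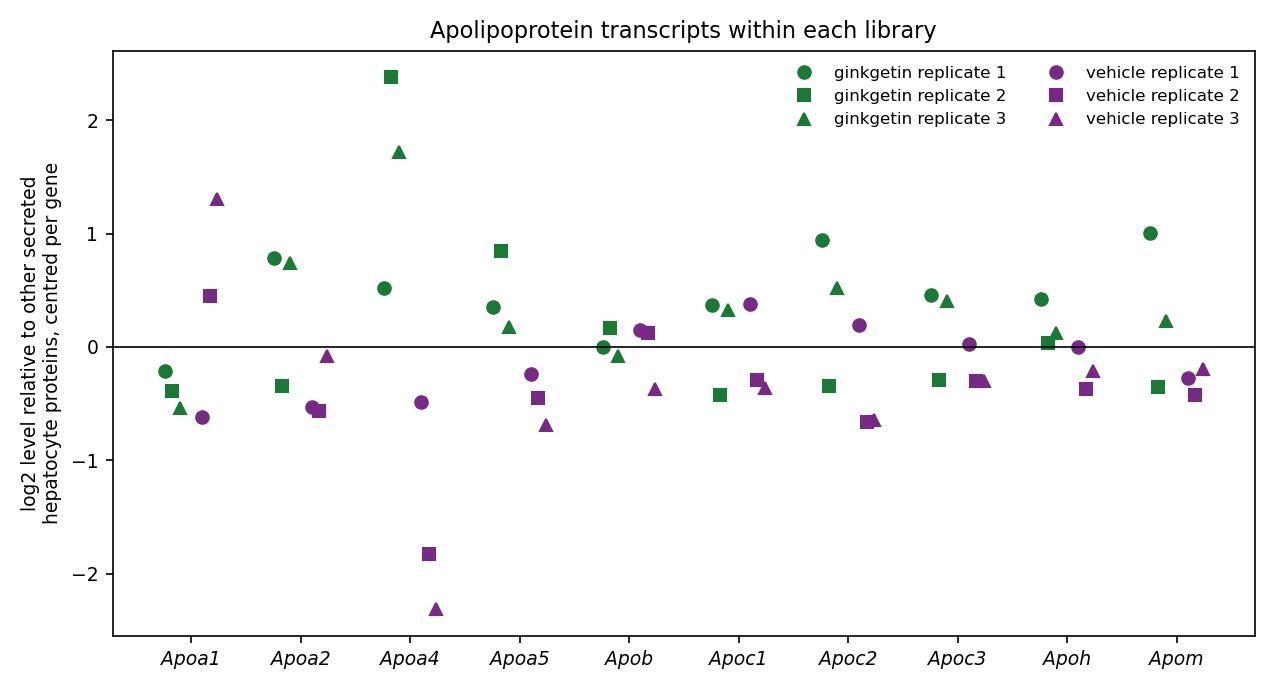
Log2 level of each apolipoprotein transcript minus the mean of 32 other secreted hepatocyte proteins in the same library, centred per gene over the 6 libraries, with ginkgetin (green) left of vehicle (purple). Apoa4 separates the groups most, at a mean of -3.97 with ginkgetin and -7.05 with vehicle before centring per gene, and Apoa1 is highest in vehicle replicate 3.

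Members that stand side by side in the genome had estimates of different size, and the differences between genes were not tested. In the RefSeq gene table of the GRCr8 assembly Apoa1, Apoc3, Apoa4 and Apoa5 stand in a row, and their log2 fold changes over the 6 libraries were 0.32, 1.46, 4.15 and 1.99, and without vehicle replicate 3 they were 0.09, 0.72, 3.08 and 1.19. Apoc2 and Apoc1 stand on either side of Apoc4, an apolipoprotein gene of the same family, and in the order Apoc2, Apoc1 and Apoc4 the 3 lay at 1.82, 1.26 and 0.89, and at 1.0, 0.44 and 0.17 without vehicle replicate 3. The strand setting of the counting is not given, so reads of neighbouring genes that overlap could not be told apart.

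RefSeq's promoter table for GRCr8 held 8 start sites of 6 members (Apoa4, Apoa5, Apoc1, Apoc2, Apoh and Apom). The 250 bases before a start are shown for Apoa4, Apoa5 and Apom, members whose groups did not overlap, and for Apoc2, the cofactor of lipoprotein lipase. The window of Apoh, whose groups did not overlap either, is not shown. Letters searched on both strands are in capitals: TATAAA (the TATA box), CAAAGTC (part of a site bound by HNF4), GTTAAT (part of a site bound by HNF1) and CCAAT (bound by NF-Y).
Apoa4, chr8:55435529-55435778, plus strand: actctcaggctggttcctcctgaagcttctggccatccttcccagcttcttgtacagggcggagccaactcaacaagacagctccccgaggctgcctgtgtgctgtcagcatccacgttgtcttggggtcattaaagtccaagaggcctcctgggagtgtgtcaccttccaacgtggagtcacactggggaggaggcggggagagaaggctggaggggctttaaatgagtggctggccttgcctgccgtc
Apoa5, chr8:55457621-55457870, plus strand: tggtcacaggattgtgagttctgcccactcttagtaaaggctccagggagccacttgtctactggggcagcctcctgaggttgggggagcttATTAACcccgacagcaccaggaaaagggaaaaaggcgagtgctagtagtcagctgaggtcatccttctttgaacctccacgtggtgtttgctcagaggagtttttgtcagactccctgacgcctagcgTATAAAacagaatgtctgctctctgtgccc
Apoc2, chr1:88462366-88462615, minus strand: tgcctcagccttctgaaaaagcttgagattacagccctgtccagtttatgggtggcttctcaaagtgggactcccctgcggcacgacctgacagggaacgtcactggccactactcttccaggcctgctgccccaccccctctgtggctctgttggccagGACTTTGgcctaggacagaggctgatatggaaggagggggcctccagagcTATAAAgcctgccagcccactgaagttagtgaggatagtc
Apom, chr20:3695368-3695617, plus strand: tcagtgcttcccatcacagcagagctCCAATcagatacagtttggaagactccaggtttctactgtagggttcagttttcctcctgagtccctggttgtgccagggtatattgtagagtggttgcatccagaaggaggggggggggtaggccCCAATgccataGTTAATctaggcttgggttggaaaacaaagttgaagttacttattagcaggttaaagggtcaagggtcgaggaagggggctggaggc
TATAAA was found in 3 of the 8 windows, in both windows of Apoa5, which overlap, and in that of Apoc2, and in 12.9% of all 33469 windows of that length. In the Apoa5 window shown, it began 30 bases before the start, and in Apoc2 40 bases before. CAAAGTC was found in 1 of the 8, in Apoc2 on the opposite strand, and in 3.95% of all windows. GTTAAT was found in 4 of the 8 (Apoa5, both of Apoc1, which overlap and share 1 site, and Apom), against 6.45% of all windows, and CCAAT in 2 of the 8, against 34.0%. The windows of Apoa4, the member with the largest difference, and of Apoh held none of these exact letters, and near matches were not searched. These matches describe the sequence and are not evidence of binding.

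The genes that assemble and export lipoproteins had mostly higher means with ginkgetin. Of 20 tested, 18 were higher (48.6% of all genes were), at a median log2 fold change of 0.81 and 0.57 without vehicle replicate 3. An unadjusted p under 0.05 was found for 6 higher and 1 lower gene, where 7.00% and 13.2% of all genes were. After adjustment limma passed 0, DESeq2 1 (9.85% of all genes) and edgeR 0. First by p were Sar1b, the small GTPase that coats vesicles exporting lipoproteins from the endoplasmic reticulum (1.26, limma adjusted p = 0.141), Tm6sf2, which helps load lipid onto the nascent particle (1.68), Soat2, which makes cholesteryl esters for secretion (1.44), and Dgat2, an enzyme of triglyceride synthesis (1.52). Without vehicle replicate 3 these 4 lay at 0.91, 0.96, 0.84 and 0.94. In all 4, picked by p, the groups did not overlap. Vehicle replicate 3 was the lowest library in each, so leaving it out could not make them overlap. Of the list, 7 genes were higher and 2 lower without overlap, where 1663 and 2354 of all 14639 genes were. Sar1b had 2719, 2511 and 2947 normalized reads with ginkgetin and 1827, 1152 and 693 with vehicle. A pair of genes was added after their values were seen because their products act on Apob itself. Mttp, the transfer protein that lipidates the Apob protein, had 2947, 2720 and 2919 normalized reads with ginkgetin and 2764, 2217 and 727 with vehicle (0.80, limma adjusted p = 0.382, and 0.21 without vehicle replicate 3). Apobec1, the enzyme that edits the Apob message in rat liver, had 130, 87.9 and 95.3 with ginkgetin and 165, 144 and 708 with vehicle (-1.31, limma adjusted p = 0.250, and -0.58 without vehicle replicate 3). Its highest value was that of vehicle replicate 3.

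Lipases, lipid transfer genes and their regulators went in both directions, with 13 of 19 higher at a median of 1.09, and 0.20 without vehicle replicate 3. An unadjusted p under 0.05 was found for 6 higher genes and 2 lower, Lpl and Gpihbp1, where 7.00% and 13.2% of all genes were. Gpihbp1 passed the filter only through the vehicle libraries, so its direction was fixed in advance. After adjustment 0 passed in limma or edgeR, and DESeq2 called 6 of the list, Gpihbp1 among them, against 9.85% of all genes. Abcg8, which forms the sterol exporter of the bile canaliculus with Abcg5, had 74.1, 103 and 45.8 normalized reads with ginkgetin and 8.30, 2.50 and 1.84 with vehicle. Its log2 fold change was 3.98 (SE 0.637, limma adjusted p = 0.0688), and it passed without vehicle replicate 3 (3.65, adjusted p = 0.0365, where 0.147% of all genes were called higher). Abcg5, named after its values were seen, had 161, 314 and 160 with ginkgetin and 94.9, 14.1 and 22.7 with vehicle. Angptl4, a secreted inhibitor of lipoprotein lipase, had 3599, 5550 and 4321 with ginkgetin and 2057, 1114 and 1261 with vehicle (1.63, limma adjusted p = 0.0936). On the other side, Lpl, lipoprotein lipase itself, which Apoc2 activates, had 903, 541 and 250 with ginkgetin and 1383, 3212 and 7579 with vehicle (-2.70, limma adjusted p = 0.109, and -2.08 without vehicle replicate 3). Gpihbp1, which anchors that lipase on capillaries, had 1 read over the ginkgetin libraries and 92 over the vehicle libraries, a ratio after scaling of 0.0155 (exact 95% counting interval 0.000388 to 0.0885), and 0.0331 (0.000804 to 0.203) without vehicle replicate 3. These intervals cover counting error only. Lpl and Gpihbp1 were highest in vehicle replicate 3, the library with the most stellate cell, macrophage and cholangiocyte marker reads.

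Receptors showed smaller differences, with 14 of 20 higher at a median of 0.24, and 11 of 20 at a median of 0.08 without vehicle replicate 3. With an unadjusted p under 0.05, 0 were higher and 1 was lower, where 7.00% and 13.2% of all genes were. After adjustment limma passed 0, DESeq2 1 (9.85% of all genes) and edgeR 0. Without that library 0 were higher and 2 lower at an unadjusted p under 0.05, where 824 and 1384 of all 14332 genes were. Vldlr, a receptor of triglyceride-rich particles, had 34.3, 27.8 and 14.8 normalized reads with ginkgetin and 53.4, 120 and 243 with vehicle (-2.21, limma adjusted p = 0.123, and -1.68 without vehicle replicate 3). Stab2, a scavenger receptor of sinusoidal endothelium, lay at 1.61, and at 0.69 without vehicle replicate 3, and its groups overlapped in both.

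Of 29 regulators of apolipoprotein transcription, 23 had higher means (48.6% of all genes did), at a median of 0.57 and 0.22 without vehicle replicate 3. At an unadjusted p under 0.05 there were 3 higher and 0 lower, where 7.00% and 13.2% of all genes were. After adjustment limma passed 0, DESeq2 2 (9.85% of all genes) and edgeR 0. Rxra, the shared partner of nuclear receptors such as PPAR-alpha, had 734, 1926 and 784 normalized reads with ginkgetin and 304, 295 and 257 with vehicle. Its log2 fold change was 1.86 (SE 0.370, limma adjusted p = 0.0886), and 1.79 (adjusted p = 0.0769) without vehicle replicate 3, so that library moved it by less than its SE. Nr0b2, a corepressor induced by bile acids, lay at 1.89, Cebpa, a hepatocyte transcription factor, at 0.96 and Foxo1, which insulin signalling restrains, at 1.29. In these 3 the groups overlapped.

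Of 12 other genes named as apolipoproteins, 11 had higher means at a median of 0.77, against 10 of 11 at a median of 0.39 without vehicle replicate 3. An unadjusted p under 0.05 was found for 4 higher genes and 1 lower gene, Apod, where 7.00% and 13.2% of all genes were. Apod passed the filter only through the vehicle libraries, so its direction was fixed in advance. Without vehicle replicate 3 Apod fell below the filter and was not tested, and 2 genes were higher at that level (5.75% of all genes) and 0 lower. After adjustment of the 6-library comparison limma passed 0 and edgeR 0. DESeq2 passed 1 (9.85% of all genes), which was Apod itself. Apod, a lipocalin made in many tissues outside the liver, had 0 reads in the ginkgetin libraries and 7.12, 5.82 and 7.98 normalized reads with vehicle, at least 1.99-fold lower against a floor of 3 reads per library, and 1.85-fold without vehicle replicate 3. Apol9a, a member of the apolipoprotein L family, had 1003, 1481 and 969 normalized reads with ginkgetin and 834, 442 and 142 with vehicle (1.59, limma adjusted p = 0.187, and 0.89 without vehicle replicate 3). Apon lay at 1.67 and Apool, which encodes a mitochondrial inner membrane protein, at 0.74, and without that library at 0.86 and 0.47. Their groups overlapped.

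**Figure D4:**
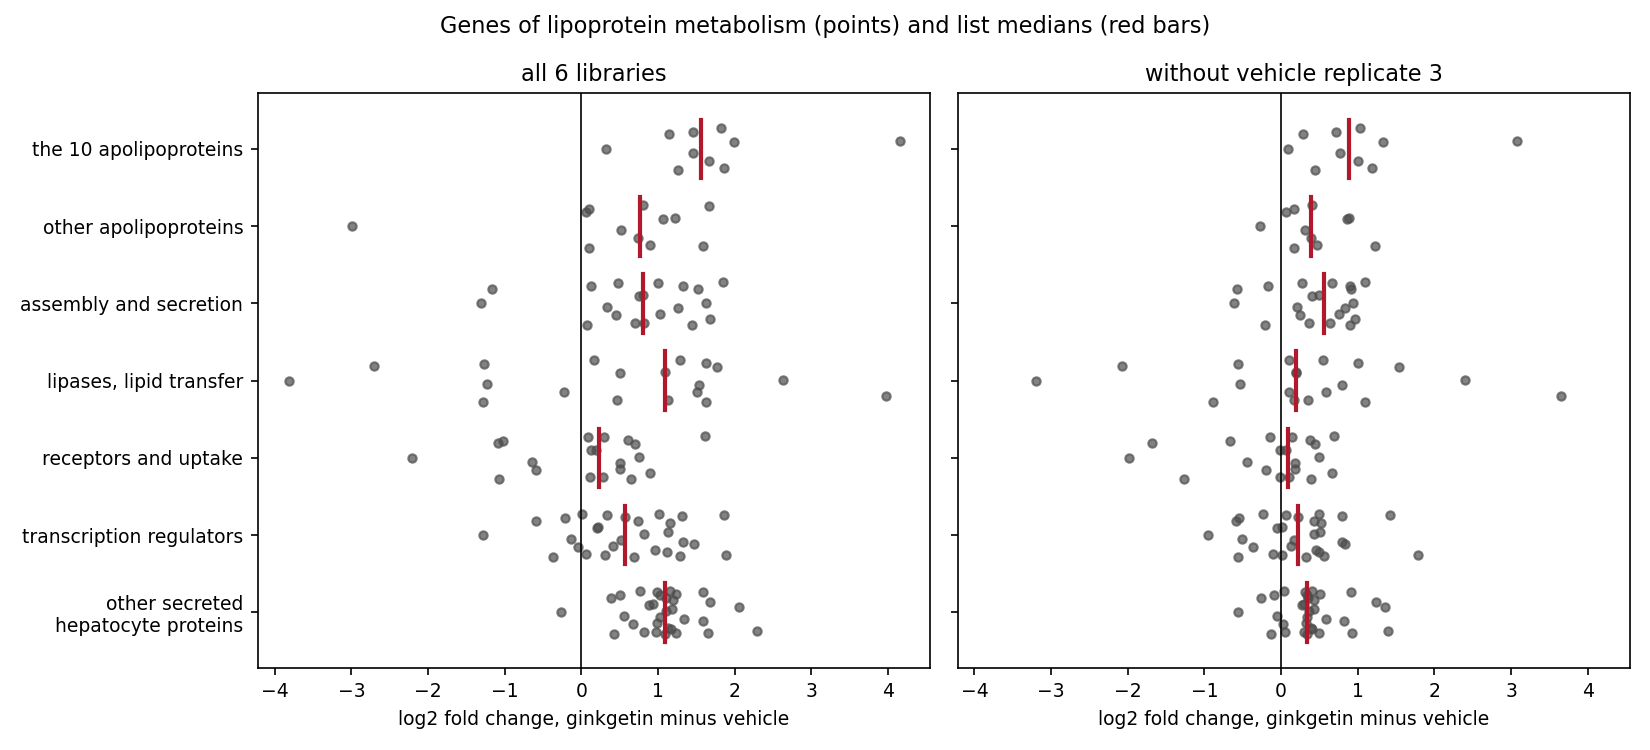
Log2 fold changes, ginkgetin minus vehicle, of the tested genes of each list (points) with the list median (red bar), over all 6 libraries (left) and without vehicle replicate 3 (right); vertical jitter has no meaning. The 10 apolipoproteins have medians of 1.56 and 0.88, and the list of lipases and lipid transfer genes spreads from -3.82 to 3.98 in the left panel. The lowest value of that list is that of Gpihbp1, which passed the filter only through the vehicle libraries.

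The genes whose log2 values followed the mean of the 10 members most closely over the 6 libraries, among 7319 genes above the median level, were Gjb1 (Pearson r 0.9988), R3hdm2 (0.9984), Soat2 (0.9981), Nsdhl (0.9974) and Mtmr4 (0.9974). These points share their scaling and the low vehicle replicate 3, and the correlations are given as a description. Gjb1, the main gap junction protein of hepatocytes, had 9525, 10958 and 12220 normalized reads with ginkgetin and 7459, 4335 and 1461 with vehicle. Among the members, r with their own mean ran from 0.68 for Apoa1 to 0.996 for Apoh.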

How the data were processed

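The authors deposited 1 table of normalized reads per gene, a signal whose normalization the table does not state. Its scaling lay within 0.147% of the size factors that DESeq2 computes from the whole reads recovered below. Per the submitters' processing notes the genome build was mRatBN7.2; aligner, counter and strand setting were not given in the sources used here. Of the values in a library, 99.67% are whole numbers of its lowest positive value (tolerance 0.02), which gave back whole reads for all 10 members; 53 of 16209 rows were rounded. The 3 columns lettered TAA, which is not in the labels, were taken as vehicle replicates 1 to 3, and every direction rests on this.

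Genes that reached 1 normalized read in no fewer than 3 libraries were tested with limma 3.58.1 (R 4.3.3; mean-variance trend, robust moderation) after adding 1 and taking log2, with Benjamini-Hochberg adjustment over all genes tested, at 0.05. Filter and adjustment were redone without vehicle replicate 3. Alternatives included edgeR 4.0.16 (quasi-likelihood, TMM) and DESeq2 1.42.0 on whole reads. Members and lists were chosen with earlier results of these data known, so no list was tested. Named genes were the members, the 4 with the smallest p per lipoprotein list, Alb, and the 5 most like the members' mean, unless said otherwise. Some genes that this rule names are not reported here. No 2 libraries were duplicates (chi-square per degree of freedom at least 49.9).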

Additional observations from a re-analysis of the deposited data

How the results depend on the processing

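Of 210 values of single members in 21 alternative settings, 196 kept their direction and side of the threshold, 8 newly passed (Apoa4 in 5 settings, Apoa2 in 2, Apoa5 in 1) and 6 turned negative. Apoa1 turned to -0.21 with equal library totals, -0.46 with quantile scaling, -0.76 when centred on other secreted hepatocyte proteins and, without vehicle replicate 3, to -0.19 with equal totals and -0.30 centred; Apob turned to -0.10 in the last. Equal totals moved the median of all genes to -0.53. Settings that combine a tool or scaling with leaving out vehicle replicate 3 were chosen after seeing the data. The cause of these changes was not tested.

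limma called 2 genes. The count was 1380 with DESeq2, 0 with edgeR (2893 at an unadjusted p under 0.05), 585 centred, 94 with equal totals, 5 with log2(value + 5), 27 without trend and robust moderation, 1 with quantile scaling, and 0 to 753 with 1 library left out (753 when vehicle replicate 1 was dropped, 112 for vehicle replicate 3, and 0 for each of the other 4). Genes higher at an unadjusted p under 0.05, 1025 in the main setting, numbered 60 centred, 348 with equal totals and 466 to 1709 with 1 library left out. Members called after adjustment were 0, against 2 with DESeq2, 3 with DESeq2 without vehicle replicate 3, 1 in both centred fits, and 0 to 1 with 1 library left out. Members at an unadjusted p under 0.05 were 5, against 1 centred, 3 centred without vehicle replicate 3, 2 with edgeR, 1 with quantile scaling and 1 to 8 with 1 library left out (1 without ginkgetin replicate 1 or 3, 3 without ginkgetin replicate 2, 8 without vehicle replicate 1). All genes at that level, in either direction, numbered 2963 in the main setting, 3096 centred and 2511 centred without vehicle replicate 3. They numbered 2893 with edgeR and 2509 with quantile scaling. Leaving out ginkgetin replicate 1, 2 or 3 gave 2783, 1885 and 1716, and leaving out vehicle replicate 1 gave 4024.

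The members' median of 1.56 became 0.49 in both centred fits, 0.61 with equal totals without vehicle replicate 3, and 0.88 to 2.08 with 1 library left out. Centred, the medians were -0.30 for other apolipoproteins, -0.27 for assembly and secretion, 0.01 for lipases and lipid transfer, -0.84 for receptors, -0.51 for regulators and 0.02 for other secreted hepatocyte proteins. With equal totals they were 0.25, 0.29, 0.57, -0.23 and 0.05 for the first 5 of these lists. Quantile scaling gave 0.65 for lipases and -0.03 for receptors, and for lipases DESeq2 gave 0.61, edgeR 0.59 and leaving out 1 library 0.20 to 1.63.

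Same-numbered libraries correlated at -0.16, 0.03 and -0.21 in their deviations from the group means. Differently numbered libraries were not compared, so these values cannot exclude that the samples were paired by number. With the replicate block 0 genes passed (2382 at an unadjusted p under 0.05), and 0 members did (4 unadjusted).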

Other observations

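Other genes of lipoprotein remodelling and of hepatocyte transcription were named here after their values were seen. Lipc, the hepatic lipase, had 5020, 6641 and 6629 normalized reads with ginkgetin and 4695, 2573 and 620 with vehicle, without overlap (log2 fold change 1.63, limma adjusted p = 0.234, and 0.80 without vehicle replicate 3). Lcat, which esterifies cholesterol on high-density lipoprotein, had 7609, 9410 and 9613 with ginkgetin and 9019, 4059 and 778 with vehicle (1.53, limma adjusted p = 0.317, and 0.55 without vehicle replicate 3). Pltp, the phospholipid transfer protein, went the other way, with 745, 627 and 619 with ginkgetin and 1229, 768 and 4306 with vehicle (-1.27, limma adjusted p = 0.253, and -0.56 without vehicle replicate 3). Hnf4a, which encodes HNF4-alpha, had 5850, 9397 and 7325 with ginkgetin and 6068, 4444 and 988 with vehicle (1.31, limma adjusted p = 0.306, and 0.51 without vehicle replicate 3). Creb3l3, an activator of Apoa4 and Apoa5 in mouse liver, had 7898, 10515 and 9963 with ginkgetin and 8520, 6356 and 1450 with vehicle (1.13, limma adjusted p = 0.362, and 0.35 without vehicle replicate 3), and its groups overlapped. The part of these genes in the apolipoprotein values was not tested.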
